A study of Mus musculus with 12 samples.

Results

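Pou3f1, Pou3f2, Pou3f3 and Pou3f4 encode the class III POU factors, and their transcripts were followed here in cultured mouse neural stem cells with and without a knockdown of the histone demethylase JMJD3 and with and without TGFb. The members were chosen by gene name: every gene probe of the array that carries 1 of the 4 names was taken. The low Pou3f1 signal of control cells with TGFb, relative to vehicle, was known from earlier results of these data and drew attention to the family, so that this response is given as a description. The rule gave 4 probes, 1 for each gene, among 39429 gene probes, and all 4 genes were among the 24146 genes tested. The cells came from the cerebral cortex at E12.5 and carried a stable shRNA. The 4 groups of 3 arrays were cells with a JMJD3 shRNA (sh2 JMJD3) that received TGFb at 5 ng/ml for 2.5 h, the same cells with vehicle, cells with a random shRNA (the control) that received the same TGFb, and control cells with vehicle. All groups thus carried a stable shRNA, and all were 1-colour arrays.

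Class III POU factors bind DNA through a POU-specific domain joined to a homeodomain, and they recognise the octamer motif and related sites, often beside a Sox protein. They are expressed in the developing nervous system, where they act in neural progenitors and in the neurons and glia that arise from them. Pou3f1 (Oct6, also Tst-1 or SCIP) is known for its role in the timing of myelination by Schwann cells and, in mouse embryonic stem cells, for promoting neural fate. Pou3f2 (Brn2) and Pou3f3 (Brn1) act redundantly in mouse cortical progenitors and in the production and migration of upper-layer neurons. Pou3f4 (Brn4) is known from the inner ear and the striatum. JMJD3, which Kdm6b encodes, is a demethylase of histone H3 lysine 27.

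The probes of Pou3f2 and Pou3f4 are shown because they are the most alike of the family, with cross-hybridisation between them not tested. Each is 60 bases long, written 5′ to 3′, and capitals mark the bases that are identical in the best ungapped alignment of the probes.
Pou3f2: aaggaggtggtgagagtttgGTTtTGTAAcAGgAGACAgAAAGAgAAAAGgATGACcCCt
Pou3f4: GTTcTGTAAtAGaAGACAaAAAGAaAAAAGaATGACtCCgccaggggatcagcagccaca
The alignment covers 40 bases, of which 32 (80.0%) are identical. The other 5 pairs of family probes had between 27.6% and 41.1% identical bases in their best ungapped alignment. Each alignment set probe against probe only, so a match of any family probe to the transcript of another member was not examined. Per the file headers, the positions are on mouse build mm9. The Pou3f2 probe lies at chr4:22414031-22414090 on the minus strand and the Pou3f4 probe at chrX:108010778-108010837 on the plus strand. The Pou3f1 probe lies at chr4:124337692-124337751 and the Pou3f3 probe at chr1:42756099-42756158, both on the plus strand. Whether a probe lies in coding sequence or in a UTR was not looked up, since no annotation of this build was used here. Because each gene had 1 probe, no agreement between probes of a gene could be examined, and the level of one gene cannot be set against that of another.

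Levels are given as log2 of the processed signal after division by the 75th percentile of its array, so that 0 is the level of that percentile. Over the 12 arrays this percentile ran from 2928 to 4124. The share of probes well above background ran from 70.2% to 78.4%, with 0 saturated spots. All 4 family probes were well above background on all 12 arrays. The target of the JMJD3 shRNA, Kdm6b, was at -1.89, -2.00 and -1.90 in knockdown cells with TGFb, against -0.55, -0.56 and -0.47 in control cells with TGFb. With vehicle it was at -1.83, -1.78 and -1.84 in knockdown cells and at -0.72, -0.61 and -0.62 in control cells. The groups did not overlap, and Kdm6b was 2.64-fold lower in knockdown cells with TGFb and 2.25-fold lower with vehicle (limma adjusted p = 2.82e-08 and 1.04e-07). The arrays lay on 4 slides, and arrays that shared a slide deviated together, so values within slides are given beside the calls of the 4 family members. The labels name 1 JMJD3 shRNA, and an effect of the knockdown cannot be told apart from another difference between the stably transfected lines. No label states whether the arrays of a group stand for separate cultures, and the tests therefore cover only the spread between these arrays, possibly a technical one, with a precision limited by their number. In these bulk samples, fewer cells of a type and less RNA per cell cannot be told apart.

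Pou3f1 was the family member that differed most among the groups. It was at -0.57, -0.24 and -0.38 in knockdown cells with TGFb and at 0.79, 0.93 and 0.85 in knockdown cells with vehicle. In control cells it was at 0.32, 0.65 and 0.41 with TGFb and at 2.58, 2.50 and 2.75 with vehicle. The 4 groups did not overlap: control cells with vehicle were highest, followed by knockdown cells with vehicle, control cells with TGFb and knockdown cells with TGFb. The processed signal itself ran from 1976 to 22266. Knockdown cells with vehicle and control cells with TGFb were neighbours in this order, with means of 0.86 ± 0.07 and 0.46 ± 0.17 (SD, n = 3 each).

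Without TGFb, Pou3f1 was 3.37-fold lower in knockdown cells than in control cells, a log2 change of -1.75 ± 0.10 (SE, limma adjusted p = 4.31e-07). Only 22 of the 24146 genes tested had a larger fall in this comparison. Within slides the change was -1.79, -1.57 and -1.90 on slides 1, 2 and 3, and all 3 were falls. Of the 4 family members, 1 fell and 1 rose in this comparison, beside 28.1% of all genes called, 12.2% higher and 15.9% lower. Without TGFb, the excess of lower calls was not kept when arrays were scaled to their median. There 43.4% of 6793 calls were higher with the 75th percentile and 52.0% of 3952 with the median. For knockdown with TGFb the excess was kept: 39.8% of 7072 calls were higher with the 75th percentile and 39.7% of 4645 with the median.

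With TGFb, Pou3f1 was 1.81-fold lower in knockdown cells than in control cells, a log2 change of -0.86 ± 0.10 (SE, limma adjusted p = 8.45e-05). The change was -1.22 within slide 3 and -0.72 within slide 4, a fall in both. Here 3 of the 4 members were called, 2 higher (Pou3f2 and Pou3f4) and 1 lower (Pou3f1). Of these, the Pou3f4 call was not kept in all alternative fits, as given below. Of all genes 29.3% were called, 11.7% higher and 17.6% lower. Both knockdown comparisons share control arrays with the TGFb response of control cells, which is what had drawn attention to Pou3f1, and they are not independent of it.

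TGFb lowered Pou3f1 in knockdown cells too. It fell 2.38-fold, a log2 change of -1.25 ± 0.10 (SE, limma adjusted p = 6.99e-06), and 39 genes fell further. The 3 TGFb arrays were all below the 3 vehicle arrays. Slide 3 was the only slide with both treatments of this line, and the change there was -1.42. This was the sole member called among the 4, beside 9.53% of all genes, of which 4.75% were higher and 4.78% lower. The knockdown arrays are not those of the control-cell response, which is given next as a description with no test.

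In control cells the Pou3f1 level with TGFb was 4.42-fold below that with vehicle, a log2 change of -2.15 ± 0.10 (SE), and 8 genes had a larger fall. In this comparison 10.2% of all genes were called, 5.45% higher and 4.73% lower. Within slides the change was -2.17 and -2.10 on slides 2 and 3. The response in knockdown cells was 58.3% of that in control cells on the log2 scale. The difference of the responses was 0.89 ± 0.14 (SE, 95% interval 0.58 to 1.21). It also has no test here, and the interval is not one, since the control-cell response is one of its terms. That response drew attention as a large fall, so its size and the difference may be overstated and the 58.3% too low. Relative to control cells with vehicle, knockdown cells with TGFb had an 8.02-fold lower signal, a log2 difference of -3.00.

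**Figure D1:**
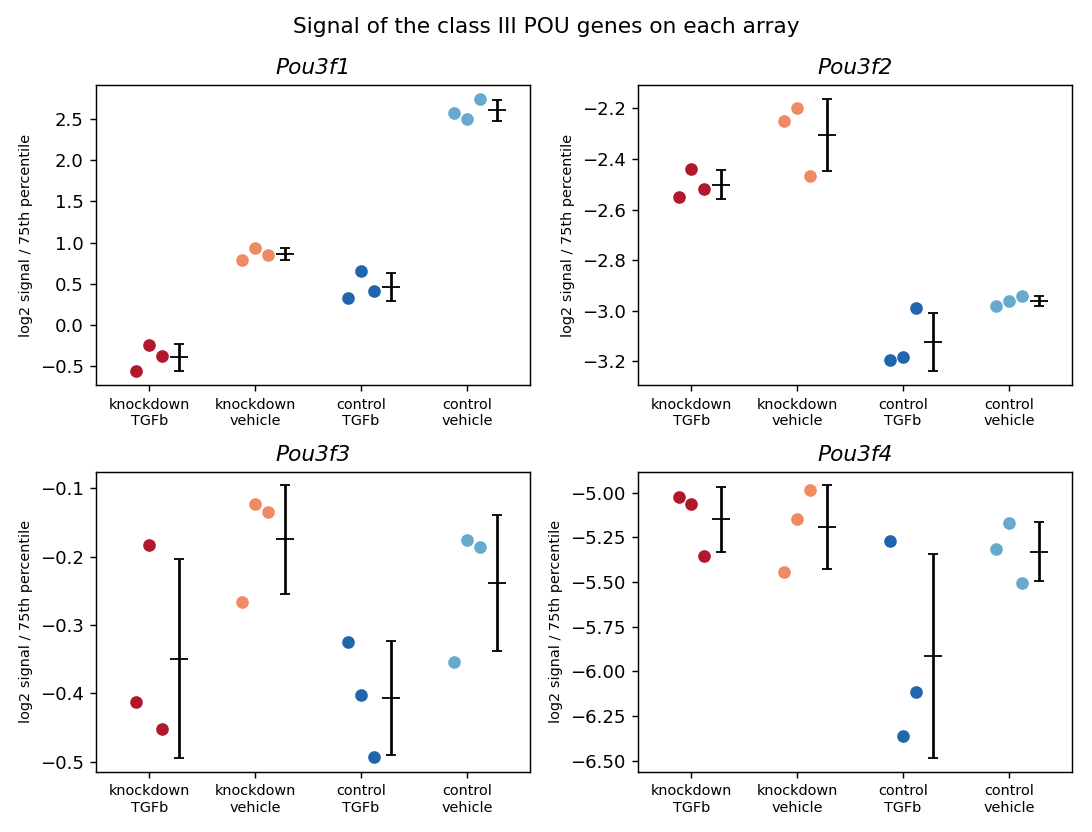
Signal of each class III POU gene on every array, as log2 of the processed signal over the array's 75th percentile (y axis, a separate scale for each gene), for knockdown and control cells with TGFb or vehicle (x axis). Points are arrays, and the bar beside them is the mean ± SD (n = 3). For Pou3f1 the 4 groups do not overlap, Pou3f2 is higher on every knockdown array than on any control array, and the groups overlap for Pou3f3 and Pou3f4.

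Pou3f2 was higher in knockdown cells under both treatments, the opposite direction to Pou3f1. With TGFb it was at -2.55, -2.44 and -2.52 in knockdown cells, against -3.20, -3.19 and -2.99 in control cells. With vehicle it was at -2.25, -2.20 and -2.47 in knockdown cells, against -2.98, -2.96 and -2.94 in control cells. Every knockdown array was above every control array. Without TGFb the rise was 1.58-fold, a log2 change of 0.66 ± 0.08 (SE, limma adjusted p = 0.000143), and with TGFb it was 1.54-fold, or 0.62 ± 0.08 (limma adjusted p = 0.00021). On slides 1, 2 and 3 the vehicle change was 0.74, 0.77 and 0.48, and on slides 3 and 4 the TGFb change was 0.64 and 0.51. A change of this size or larger, in either direction, was found for 6.25% of all genes without TGFb and for 9.03% with TGFb, against 0.236% and 3.93% for the changes of Pou3f1.

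Pou3f2 was not called for TGFb in knockdown cells. There the change was -0.20 ± 0.08 (SE) with a 95% interval of -0.38 to -0.01, and it did not pass the test (limma adjusted p = 0.213). In control cells it was -0.16 ± 0.08. The difference of the responses was -0.04 ± 0.12.

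Pou3f3 passed none of the 3 tests. It was at -0.41, -0.18 and -0.45 in knockdown cells with TGFb and at -0.27, -0.12 and -0.14 with vehicle. In control cells it was at -0.33, -0.40 and -0.49 with TGFb and at -0.35, -0.18 and -0.19 with vehicle. The groups overlapped, and its SD over the 12 arrays was 0.13, against 1.15 for Pou3f1 and 0.36 for Pou3f2. Knockdown changed it by 0.06 ± 0.08 (SE) without TGFb, with a 95% interval of -0.11 to 0.24, and by 0.06 ± 0.08 with TGFb (limma adjusted p = 0.679 and 0.654). The TGFb change was -0.17 ± 0.08 in knockdown cells (limma adjusted p = 0.264) and -0.17 ± 0.08 in control cells. Pantr1, a long noncoding RNA gene that the RefSeq table also lists as Pou3f3os, lies outside the rule for named genes and was named after its values were seen. It had group means from 3.92 to 3.96 and limma adjusted p-values from 0.564 to 0.99 over the 4 comparisons of a pair of groups.

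Pou3f4 was the dimmest of the 4 relative to background, with a processed signal of 40.2 to 114. These values were 4.29 to 11.01 times the dimmest signal that still counted as well above background on the same array. It was at -5.02, -5.06 and -5.36 in knockdown cells with TGFb, against -5.27, -6.36 and -6.11 in control cells with TGFb. With vehicle it was at -5.44, -5.15 and -4.98 in knockdown cells, against -5.31, -5.17 and -5.50 in control cells. Control TGFb replicates 2 and 3 were the lowest of the 12 arrays, and control TGFb replicate 1 lay among the knockdown arrays. With TGFb, Pou3f4 was 1.70-fold higher in knockdown cells, a log2 change of 0.77 ± 0.25 (SE, limma adjusted p = 0.0356), although the groups overlapped. This call was lost without knockdown TGFb replicate 1 (0.71, limma adjusted p = 0.0877) or replicate 2 (0.72, limma adjusted p = 0.0994). It was also lost without control TGFb replicate 2 (0.54, limma adjusted p = 0.144) or replicate 3 (0.67, limma adjusted p = 0.1). The call was lost as well with the replicate block (0.77, limma adjusted p = 0.0574), with normexp background correction (0.35, limma adjusted p = 0.0758) and with only the compared groups fitted (0.77, limma adjusted p = 0.101). With the authors' deposited values the change was 0.38 (limma adjusted p = 0.0205). The change was 1.34 within slide 3 and 0.90 within slide 4. With vehicle the knockdown change was 0.14 ± 0.25 (limma adjusted p = 0.796), and the TGFb change in knockdown cells was 0.04 ± 0.25 (limma adjusted p = 0.946). In control cells the TGFb change was -0.59 ± 0.25, and on slides 2 and 3 it was -0.10 and -0.86.

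**Figure D2:**
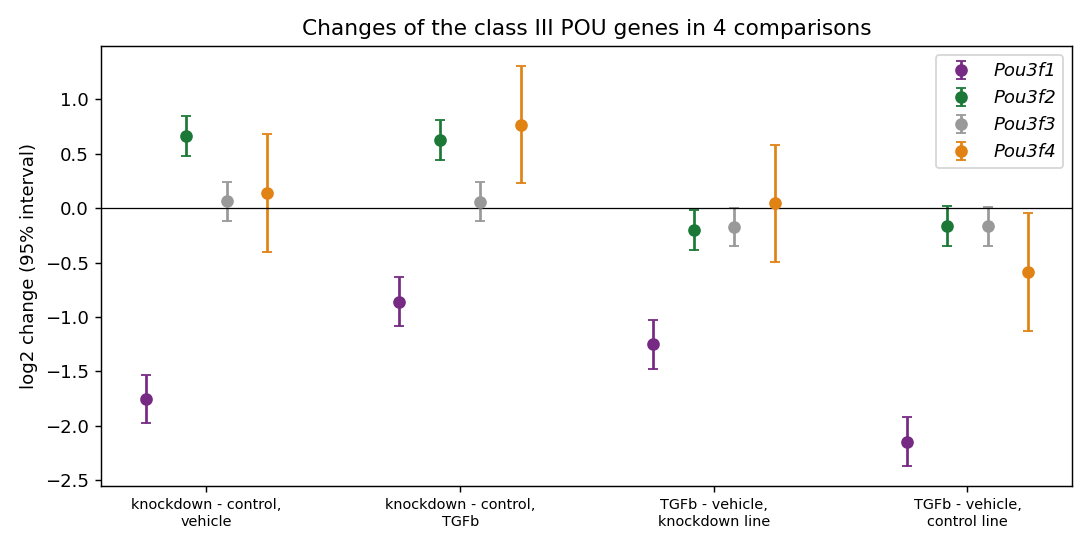
Log2 change (y axis, point with 95% interval from the limma fit) of the 4 genes in knockdown against control cells with vehicle or TGFb and in TGFb against vehicle in each line (x axis). Pou3f1 lies below 0 in all 4 comparisons, Pou3f2 lies above 0 in both knockdown comparisons, and the control-cell response is shown as a description.

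**Figure D3:**
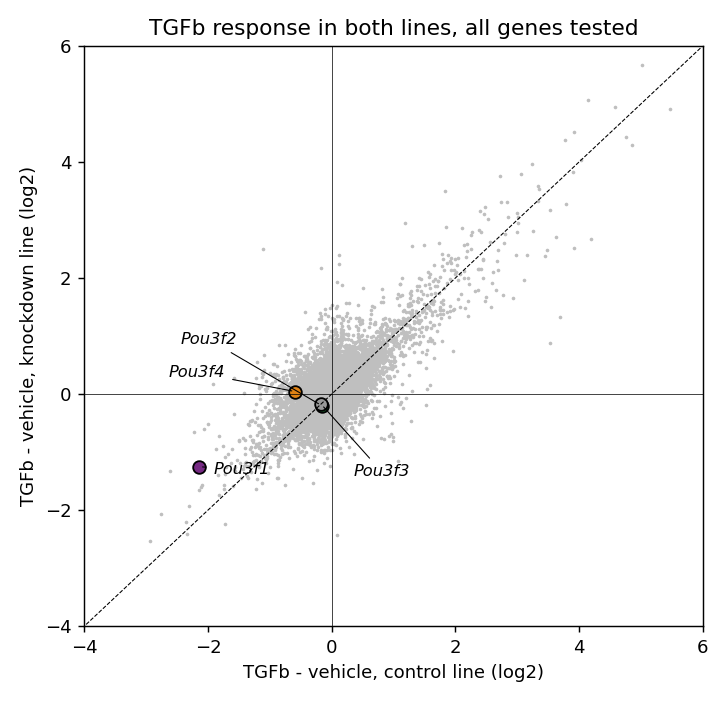
TGFb minus vehicle in control cells (x axis, log2) against TGFb minus vehicle in knockdown cells (y axis, log2) for all 24146 genes tested (grey) with the 4 family members marked, and a dashed line where both are equal. Pou3f1 lies at -2.15 in control cells and -1.25 in knockdown cells, above the line, while the other 3 members lie near 0 in knockdown cells.

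The counts in each gene list below stand beside the share of all genes called in the same comparison. That share was 28.1% for knockdown without TGFb and 29.3% for knockdown with TGFb. For the TGFb response it was 9.53% in knockdown cells and 10.2% in control cells. Of 12 listed genes of the other POU classes, counting the coactivator gene Pou2af1, 11 were tested, and 1 was called in each comparison. That gene was Pou4f2 (Brn3b), a factor of retinal ganglion cells, which was higher with TGFb in knockdown cells (log2 1.14, limma adjusted p = 0.000832) and in control cells (0.94, limma adjusted p = 0.00288). It was also higher in knockdown cells with vehicle (0.73, limma adjusted p = 0.00634) and with TGFb (0.93, limma adjusted p = 0.00147). The list's median change was -0.03 for TGFb in knockdown cells and 0.18 for knockdown without TGFb, beside -0.02 for all genes tested in both.

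The SoxB1 and SoxC genes encode partners of POU factors on DNA. Without TGFb, 3 of the 6 were higher in knockdown cells and 2 lower. Sox2, which marks neural stem cells, rose by 0.73 ± 0.04 (SE, limma adjusted p = 3.42e-07) and Sox12 by 0.50 ± 0.07, while Sox3 fell by 0.60 and Sox1 by 0.38 on the log2 scale. With TGFb the counts were again 3 and 2. For TGFb in knockdown cells 1 rose (Sox1, 0.34) and 1 fell (Sox2, -0.33). In control cells 1 rose and 3 fell, with Sox11 at -0.57 and Sox3 at -0.35. The list's median without TGFb was 0.05, beside -0.02 for all genes.

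Of 10 genes reported as targets of class III POU factors, 9 were tested, and they moved in both directions. Without TGFb, 1 was higher in knockdown cells and 3 lower. Dab1, an adaptor of Reelin signalling, rose by 0.56. Cdk5r1, the activator of Cdk5, fell by 0.56, Nes, the filament gene of neural stem cells, by 0.34 and Dll1, a Notch ligand, by 0.30. With TGFb in knockdown cells Cdk5r1 rose by 0.84 and Zfp521 by 0.49, while Dll1 fell by 0.29. With TGFb in control cells Cdk5r1 rose by 0.53 and Zfp521 by 0.31, while Dll1 fell by 0.61. The list's median without TGFb was 0.02.

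Among 8 upper-layer neuron genes, the class of neuron that Pou3f2 and Pou3f3 are known for, 7 were tested. Without TGFb, 3 were higher in knockdown cells and 2 lower: Cux2 rose by 0.80 and Lhx2 by 0.42, while Mdga1 fell by 0.60. The list's median was 0.18. Of 6 deep-layer genes 4 were tested, and 1 was higher (Tle4, 0.17) and 1 lower (Bcl11b, -0.92), with a list median of -0.03. With TGFb in knockdown cells, Mdga1 rose by 0.92 and Bcl11b by 0.72, while Rorb fell by 0.80.

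All 10 neural stem cell markers were well above background on all 12 arrays. In knockdown cells 4 of them were higher and 2 lower with vehicle, and 3 were higher and 1 lower with TGFb. With vehicle, Hes5 rose by 0.77 and Slc1a3 by 0.67, while Nes fell by 0.34. The TGFb response had 0 higher and 1 lower in each line. Markers of other cell types were also measured above background. Since 70.2% to 78.4% of all probes passed this flag, passing it does not show that such cells were present. Of 5 Schwann cell and neural crest markers 3 were well above background on all 12 arrays and Foxd3 on 0, of 4 endothelial markers 3 were and Cdh5 on 0, and of 4 microglia markers 1 was (Csf1r) and Aif1 on 0. These 4 genes are named for their detection, after their values were seen. Of the 6 markers of the oligodendrocyte lineage, in which Pou3f1 is also known to be expressed in cultured rat progenitors, 3 were lower and 1 higher in knockdown cells without TGFb, with Pdgfra at -1.98. Their summed level relative to the 75th percentile was 44.4 to 46.7 in knockdown cells with vehicle and 49.9 to 54.0 in control cells with vehicle. With TGFb it was 38.0 to 41.5 in knockdown cells and 40.5 to 41.1 in control cells. With TGFb, 2 of the 6 fell in knockdown cells and 3 in control cells, Olig2 by 0.48 in knockdown cells and by 0.88 in control cells. None of the 6 was below background on every array. Of 5 neuron markers tested, 2 rose (Dcx, 1.12, and Syt1, 1.05) and 1 fell (Rbfox3, -1.28) in knockdown cells with vehicle, where the summed level of the list was 12.6 to 13.5, against 11.4 to 12.3 in control cells with vehicle. With TGFb that sum was 11.6 to 13.01 in knockdown cells and 10.5 to 11.1 in control cells. Of 4 astrocyte markers 1 rose (Gfap, 0.97) in knockdown cells with vehicle, and Gfap also rose with TGFb, by 0.45 in knockdown cells and by 0.93 in control cells. The summed level of the astrocyte list was 3.85 to 4.72 in knockdown cells with TGFb and 3.601 to 4.01 in knockdown cells with vehicle. In control cells it was 4.37 to 4.69 with TGFb and 3.77 to 4.10 with vehicle. Of 5 fibroblast and meningeal markers tested, 1 rose (Foxc1, 0.32) and 1 fell (Col1a1, -0.49) in knockdown cells with vehicle, where the summed level of the list was 6.39 to 7.35, against 5.41 to 5.92 in control cells with vehicle. With TGFb it was 5.62 to 6.14 in knockdown cells and 4.71 to 5.53 in control cells. Each summed level adds linear signals of different probes, so its brightest probes set it, and it is not the level of a cell type. Mean log2 signals over the 12 arrays were 3.51 for Map2 but -1.89 for Syt1, -4.25 for Rbfox3 and -6.43 for Dcx. They were 5.02 for Olig1 but -3.47 for Pdgfra, 2.03 for Foxc1 but -5.44 for Col1a1, and -4.19 for Gfap. The part of the listed cell types in the changes of Pou3f1 and Pou3f2 was not tested.

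The genes whose pattern was most like that of Pou3f1 over the 12 arrays, among 7685 genes compared, were Repin1, Ncald, Rgs8, Cmtr2 and Egr4, with Pearson r from 0.982 to 0.990. These are descriptions, since the arrays share groups and slides. Egr4, an immediate early zinc finger factor, changed by -1.43 for knockdown without TGFb, -1.16 for TGFb in knockdown cells and -2.18 for TGFb in control cells. For knockdown with TGFb it changed by -0.41, against -0.86 for Pou3f1. Repin1 changed less, by -0.61, -0.40 and -0.66 in the same order.

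**Figure D4:**
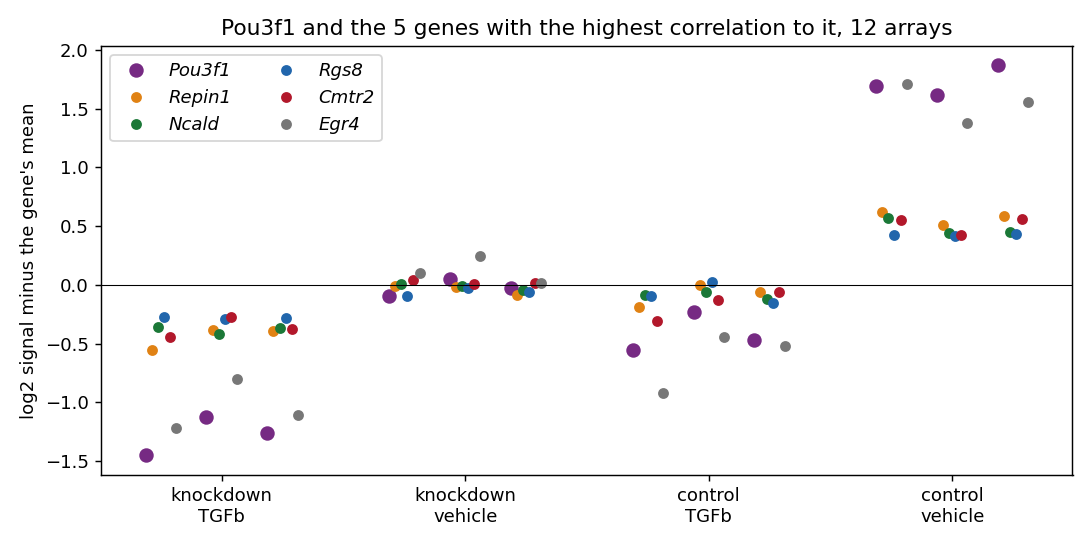
Signal of Pou3f1 and of the 5 genes with the highest Pearson r to it on each array, as log2 signal minus the gene's own mean over the 12 arrays (y axis), by group (x axis, 3 arrays each). All 6 genes are highest in control cells with vehicle, and Pou3f1 and Egr4 spread furthest.

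The genes most like Pou3f2 were Tyw3, Slc2a6, Lgr5, Cnpy4 and Apc2, with r from 0.974 to 0.979. Lgr5, a receptor of R-spondins, was at 0.73 for knockdown without TGFb and at 0.61 with TGFb. Those most like Pou3f3 were Lonrf2, Abr, Frmd4b, Syne1 and Tmem87b, with r from 0.853 to 0.919. Those most like Pou3f4 were Fam186b, Metrn, Ppp1r37, Extl1 and Ammecr1, with r from 0.910 to 0.974. Among the members themselves the correlation over the 12 arrays ran from -0.35 for Pou3f1 with Pou3f2 to 0.56 for Pou3f3 with Pou3f4.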

How the data were processed

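The 12 samples were each read on a 1-colour Agilent array after amplification of 500 ng of total RNA from an oligo-dT primer, per the labels' protocols. The deposited scanner files give intensities on a linear scale, read with Agilent Feature Extraction 10.7.3.1 per the file headers, which name build mm9. The authors also deposited log2 values, used as an alternative: all 12 columns correlated best with their own array (gene-centred values), shared a median of 7.93, and their background correction is not given in the sources used here. Control spots and outlier-flagged spots were left out, spots of 1 probe averaged, and log2 of the processed signal taken relative to the array's 75th percentile. Of 39429 probes, 26055 took their name from RefSeq accessions (3358 of these a different symbol) and 13374 have the name in the file. The filter kept 29968 probes, those well above background throughout at least 1 group, and a gene's brightest kept probe stood for it. The 4 groups were fitted together with limma 3.58.1 in R 4.3.3 (eBayes with a trend, 8 residual and 3.10 prior degrees of freedom), with two-sided tests adjusted by Benjamini-Hochberg over 24146 genes at 0.05. TGFb in control cells and the difference of responses are described without a p for the family. Named genes were the members, Kdm6b, up to 4 called genes of each list in each comparison and the 5 genes most correlated with each member (SD of at least 0.2), and some genes that this rule names are left out of the text. The members and lists were chosen with earlier results of these data known. The fit was run on simulated data with independent noise on each array, so that run does not cover the shared deviation of arrays within slides. Alternatives covered background correction, scaling, filters, probe rule, priors, array weights, slide and replicate blocks, the samples fitted, the deposited log2 values and leaving out single arrays.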

Additional observations from a re-analysis of the deposited data

How the results depend on the processing

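Over 13 alternatives and 12 fits without 1 array each, the calls of Pou3f1 and Pou3f2 kept their direction and their side of the threshold in all 3 tested comparisons, and Pou3f3 was called in none. The Pou3f1 change over the 13 alternatives ran from -1.79 to -1.74 for knockdown without TGFb, from -0.92 to -0.81 with TGFb, and from -1.38 to -1.22 for TGFb in knockdown cells, and that of Pou3f2 from 0.53 to 0.67 for knockdown without TGFb. The Pou3f4 call for knockdown with TGFb was lost with normexp background correction (0.35, limma adjusted p = 0.0758), with only the groups of the comparison fitted (0.77, limma adjusted p = 0.101) and with the replicate block (0.77, limma adjusted p = 0.0574), over a range of adjusted p from 0.00697 to 0.101, and without 1 array it ran from 0.54 to 1.09. Its TGFb change in control cells was -0.24 with normexp and -0.28 with the authors' deposited values, and ran from -0.91 to -0.36 without 1 array; the difference of responses ran from 0.41 to 0.95. The cause was not tested. The replicate block changed no other call of a member; same-numbered arrays of different groups deviated together in 6 of 18 pairs, so that the numbers are not taken to pair samples. Scaling to the array median gave 1386 called genes instead of 2300 for TGFb in knockdown cells, 3952 instead of 6793 for knockdown without TGFb (52.0% of them higher, instead of 43.4%), 4645 instead of 7072 with TGFb, and 1516 instead of 2459 for TGFb in control cells, and estimated array weights gave 3689 for TGFb in knockdown cells. Pou3f4 had the lowest signal over background of the 4 genes.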
